A study of Mus musculus with 6 samples.

Results

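The 45 genes described here make, mark or direct the endothelium, the inner lining of blood vessels. The rule that picks them goes by gene name and uses no measured value, though it was written with earlier results of these arrays known. They comprise receptors and ligands of vascular growth, junction and surface proteins of endothelial cells, endothelial transcription factors, Notch and ephrin genes of arteries and veins, and receptors for vasoactive peptides with the endothelial nitric oxide synthase. All 45 were among the 18194 genes with a probe set of their own symbol, and 90 of the 45101 probe sets of the array belonged to them. The samples were 3 RFC1-/- and 3 RFC1+/+ whole mouse embryos at embryonic day 9.5, a mutant and a wild-type littermate from each of 3 litters, with 1 embryo on each array. RFC1 is the reduced folate carrier, encoded in the mouse by Slc19a1, and the knockout had been moved from C57BL/6J stock to the inbred SWV strain. All dams, 50 to 70 days old at mating, received folic acid at 25 mg/kg by daily injection, so that folate supplementation was common to both genotypes. By the labels all 3 RFC1-/- embryos had craniorachischisis, a neural tube unclosed along brain and spine, and an allantois not fused with the chorion, and the RFC1+/+ embryos were normal in both respects. The paper also describes RFC1-/- embryos from dams on this dose as developmentally delayed, and calls mutants of embryonic day 9.5 tiny. A difference in developmental stage therefore cannot be told apart from genotype in these comparisons. An allele that is inactivated in every cell of the embryo does not tell an effect within endothelial cells from one on their surroundings, and the methods say that extraembryonic membranes were collected for genotyping.

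Blood vessels of the early embryo arise by vasculogenesis, in which mesodermal precursors differentiate into endothelial cells and join into a plexus, and are then remodelled by angiogenesis into arteries, veins and capillaries. Vascular endothelial growth factor (VEGF) drives both through receptor tyrosine kinases on endothelial cells, angiopoietins and their Tie receptors stabilise the new vessels, and Notch and ephrin signals separate arteries from veins. At this stage the first circulation links the embryo with its yolk sac, where endothelial cells lie next to visceral endoderm and form around the first blood islands. The paper writes that fetal vessels of RFC1-/- embryos appear to form normally, while very few red cells are seen in them. In sections at embryonic day 9.5 it marks a head vein and a branchial arch artery of a mutant as abnormal in shape.

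The vessel genes that passed the test were higher in RFC1-/- embryos, and most of the 45 did not pass it. Of the 45, 18 (40.0%) were past an adjusted p of 0.05 and higher, 0 were past it and lower, and 27 were not past it (limma with the litter as a block, adjusted over 18194 genes). Over all genes tested 3.67% were called higher, 1.65% lower and 5.32% in either direction. The mean difference was above 0 in 39 members (86.7%), against 46.0% of all genes. The median log2 difference, RFC1-/- minus RFC1+/+, was 0.47 over the members and -0.01 over all genes, and the members ran between -0.34 for Heyl and 1.24 for Sox7. By litter the median of the members was 0.44, 0.54 and 0.32 in litters 1, 2 and 3, with 37, 39 and 37 members above 0. In 27 members (60.0%) every RFC1-/- embryo lay above every RFC1+/+ embryo, which held for 12.8% of all genes, and in 0 members did every RFC1-/- embryo lie below, against 13.4% of all genes. The study itself had put Kdr, Podxl, Sox7, Erg and Adgrl4 on its list of changed genes from these same embryos, so their rise is not independent evidence. Its list was made with a stricter adjusted p and after a 1.5-fold variation filter, neither of which was used for the calls here. The other 40 members held 13 higher and 0 lower genes, with a median log2 difference of 0.38. They were measured in the same embryos and chosen with earlier results known, so they are not independent evidence either. Calls depended on the litters, as 6 members were higher without litter 1, 7 without litter 2 and 20 without litter 3, and 0 were lower in each case. Each of these fits rests on fewer arrays than the fit with all litters, and a lost call does not by itself mean a smaller difference. Over all 18194 genes the number called higher moved too. It was 667 with all litters, 237 without litter 1, 527 without litter 2 and 861 without litter 3. RNA of whole embryos does not separate more endothelial cells from more RNA per cell. Nor does it separate these from RNA of other cell types that make the same gene, and the difference of a gene can hold any of them.

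**Figure D1:**
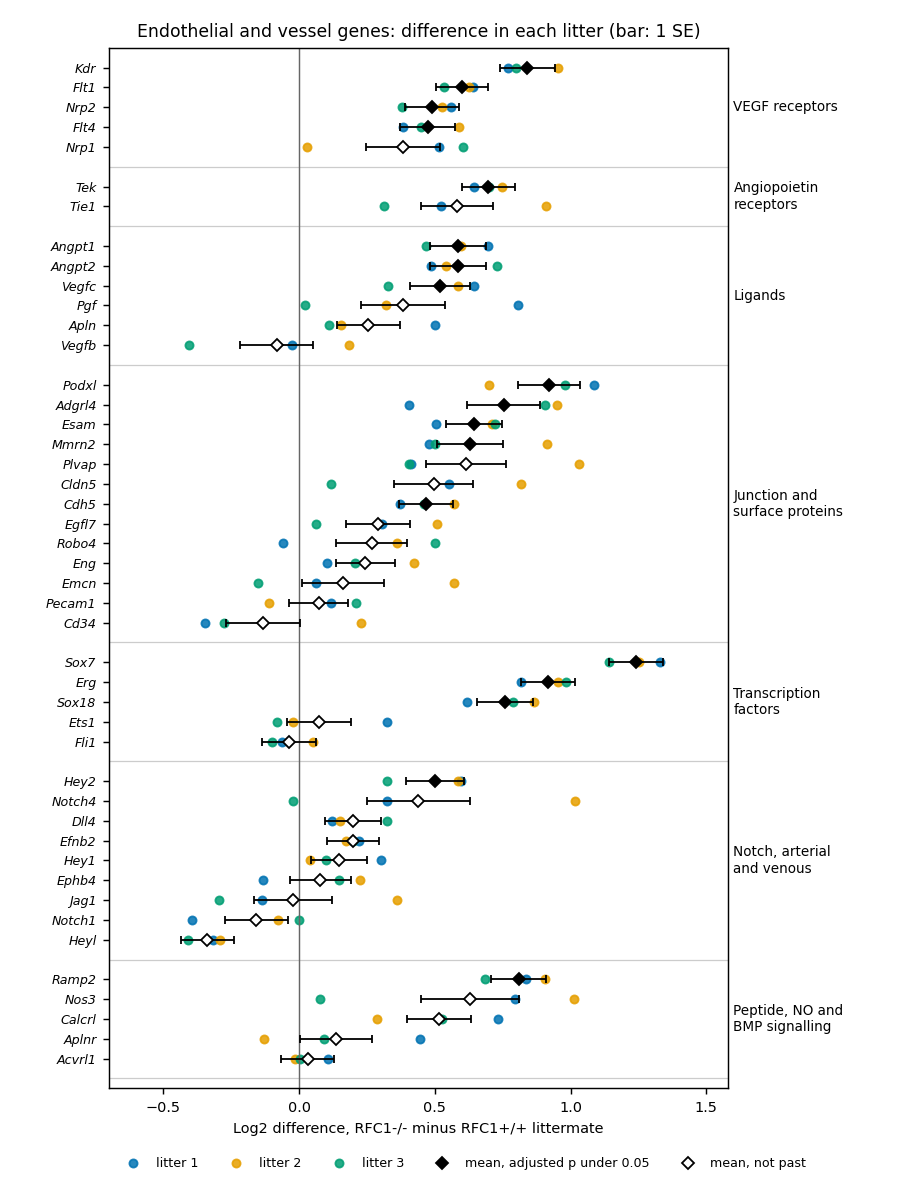
Log2 difference between each RFC1-/- embryo and its RFC1+/+ littermate (circles, coloured by litter) and the mean with 1 standard error from limma (diamonds, filled where the adjusted p was under 0.05), with the 45 genes grouped by role. Filled diamonds stand in every group, all to the right of 0, and the Notch, arterial and venous genes lie closest to 0 as a group, with a median of 0.15.

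Levels below are log2 expression values on the brightest probe set of a gene, always in the order of litters 1, 2 and 3. A log2 difference is followed by its standard error from limma with 3 embryos per genotype, and a level of 1 gene cannot be set against that of another. Among the VEGF receptors and co-receptors, 4 of 5 were higher, with a median difference of 0.49. Kdr, the main signalling receptor for VEGF-A on endothelial cells, measured 10.00, 10.01 and 10.11 in RFC1-/- embryos, against 9.23, 9.05 and 9.31 in RFC1+/+ embryos. The 2 genotypes did not overlap, and the signal was 1.79-fold higher in the mutants (log2 difference 0.84 ± 0.10, adjusted p = 0.00941). Kdr marks the earliest precursors of endothelium, and the 250 bases before its start site are shown because they hold the letters GTGGGAA (capitals), which are bound by RBPJ, the DNA-binding partner of Notch, and were found on either strand in 5.42% of all RefSeq promoters searched (minus strand of GRCm38.p6, chr5:75978456-75978705).
Kdr: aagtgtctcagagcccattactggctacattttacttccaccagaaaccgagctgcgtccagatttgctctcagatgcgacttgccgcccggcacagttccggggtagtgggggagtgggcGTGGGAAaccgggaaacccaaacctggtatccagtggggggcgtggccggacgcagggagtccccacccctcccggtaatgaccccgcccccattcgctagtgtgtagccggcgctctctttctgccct

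Flt1, a receptor that binds VEGF-A tightly, signals weakly and can act as a decoy, measured 8.37, 8.22 and 8.50 in RFC1-/- embryos and 7.73, 7.60 and 7.97 in RFC1+/+ embryos, a 1.52-fold rise (log2 difference 0.60 ± 0.10, adjusted p = 0.0208). Flt4, the receptor for VEGF-C and VEGF-D, stood at 8.25, 8.47 and 8.37 in the mutants and at 7.87, 7.89 and 7.93 in their littermates, 1.39-fold higher (0.47 ± 0.10, adjusted p = 0.0475). The co-receptor Nrp2 had 9.25, 9.32 and 9.34 in RFC1-/- embryos and 8.69, 8.79 and 8.96 in RFC1+/+ embryos, a 1.40-fold rise (0.49 ± 0.10, adjusted p = 0.0414). In these 3 genes each mutant was above all wild-type embryos. The neuropilin Nrp1, which pairs with Kdr and also binds semaphorins, did not pass the test on its brightest probe set, with 11.21, 11.15 and 11.45 in RFC1-/- embryos, against 10.70, 11.12 and 10.85 in RFC1+/+ embryos (0.38 ± 0.14, adjusted p = 0.187). The genotypes of Nrp1 did not overlap either, though its littermates of litter 2 differed by 0.03, those of litters 1 and 3 by 0.52 and 0.60. Kdr kept its call when any 1 litter was left out, whereas Flt1 and Nrp2 lost theirs without litter 1 (adjusted p = 0.139 and 0.272) or litter 2 (0.0692 and 0.141), and Flt4 whichever of the 3 was left out (0.194, 0.182 and 0.0553).

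Of the 2 angiopoietin receptors, Tek passed the test. Tek, also called Tie2, is the receptor through which angiopoietins act, and it measured 8.68, 8.99 and 9.21 in RFC1-/- embryos, against 8.04, 8.24 and 8.51 in RFC1+/+ embryos. Litters differed in their level of Tek in both genotypes, yet the difference within a litter was 0.65, 0.75 and 0.70, a 1.62-fold rise (0.70 ± 0.10, adjusted p = 0.013). Without litter 1 its adjusted p was 0.0673. Tie1, a partner of Tek with no established ligand of high affinity, had 6.03, 6.05 and 5.90 in the mutants and 5.51, 5.14 and 5.58 in their littermates, with no overlap, and it missed the threshold narrowly (0.58 ± 0.13, adjusted p = 0.0601), although without litter 3 it passed (adjusted p = 0.0206). The promoter of Tek is shown for its match to ACAAAG, the core that SOX proteins bind, which was present in 16.5% of all promoters searched (plus strand, chr4:94739039-94739288, match in capitals).
Tek: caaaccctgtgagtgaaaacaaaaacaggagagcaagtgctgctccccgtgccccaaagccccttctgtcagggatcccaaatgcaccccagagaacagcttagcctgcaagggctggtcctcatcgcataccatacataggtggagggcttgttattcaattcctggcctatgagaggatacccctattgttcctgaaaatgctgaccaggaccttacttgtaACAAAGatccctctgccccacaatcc

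Of the 6 ligands, 3 were higher. Angpt1, the agonist of Tek made largely by cells around the vessel and by the heart, measured 8.26, 8.35 and 8.26 in RFC1-/- embryos and 7.57, 7.75 and 7.79 in RFC1+/+ embryos (1.5-fold higher, log2 difference 0.59 ± 0.10, adjusted p = 0.0262). Angpt2, which antagonises Tek in many settings and is made by endothelial cells, had 6.28, 6.33 and 6.46 in the mutants, against 5.79, 5.79 and 5.73 in their littermates (1.5-fold, 0.59 ± 0.10, adjusted p = 0.0273). Agonist and antagonist thus rose in the same embryos. Vegfc, the growth factor of lymphatic and some blood endothelium, stood at 9.45, 9.45 and 9.33 in RFC1-/- embryos and 8.81, 8.86 and 9.0 in RFC1+/+ embryos (1.43-fold, 0.52 ± 0.11, adjusted p = 0.0452). Each of the 3 lost its call without litter 1 (adjusted p = 0.18, 0.111 and 0.285 for Angpt1, Angpt2 and Vegfc) and without litter 2 (0.08, 0.0709 and 0.151). Pgf, the placental growth factor that binds Flt1, differed by 0.38 ± 0.16 (adjusted p = 0.257), with littermate differences of 0.81, 0.32 and 0.02. Apln, the peptide ligand of Aplnr, differed by 0.26 ± 0.12 with overlapping genotypes (adjusted p = 0.314). Vegfb, a ligand of Flt1 with little part in the growth of embryonic vessels, measured 7.44, 7.34 and 6.90 in RFC1-/- embryos, against 7.47, 7.15 and 7.30 in RFC1+/+ embryos, and its 95% confidence interval of -0.40 to 0.23 held 0.

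**Figure D2:**
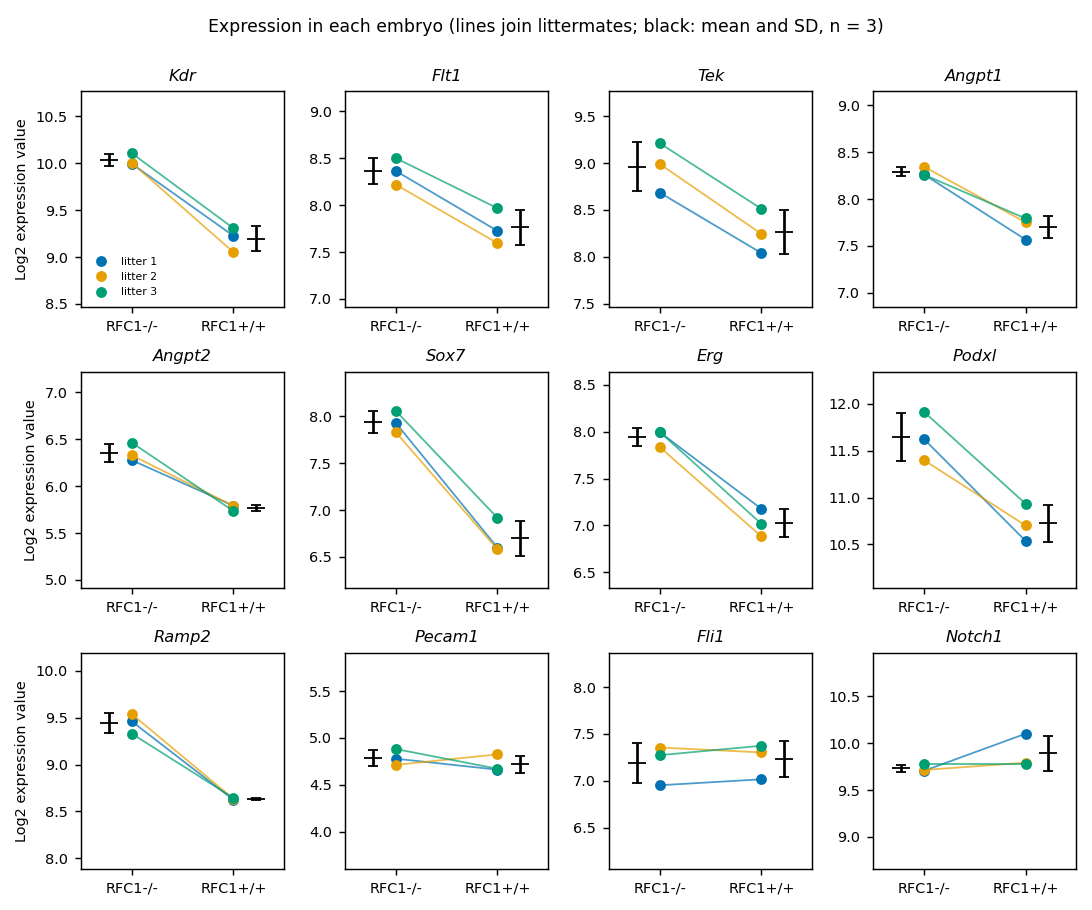
Log2 expression values of 12 members in each of the 6 embryos, RFC1-/- at the left and RFC1+/+ at the right of each panel, with lines joining littermates and black bars for the mean and SD (n = 3 each). Lines slope the same way in all litters for Kdr, Flt1, Tek, Angpt1, Angpt2, Sox7, Erg, Podxl and Ramp2, and those of Pecam1, Fli1 and Notch1 are near level or cross.

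Junction and surface proteins form the largest group, and 5 of 13 were higher, with a median difference of 0.47. Podxl, a sialomucin of the luminal surface that is also made by podocytes and other epithelia, had 11.62, 11.40 and 11.92 in RFC1-/- embryos and 10.54, 10.70 and 10.93 in RFC1+/+ embryos (1.89-fold higher, 0.92 ± 0.11, adjusted p = 0.0105). Adgrl4, an adhesion G protein-coupled receptor of endothelium, measured 6.52, 6.55 and 6.65 in the mutants and 6.12, 5.60 and 5.75 in their littermates (1.69-fold, 0.75 ± 0.13, adjusted p = 0.0279). Esam, an immunoglobulin-like protein of endothelial tight junctions, stood at 7.93, 8.16 and 8.09 in RFC1-/- embryos, against 7.43, 7.45 and 7.37 in RFC1+/+ embryos (1.56-fold, adjusted p = 0.02). All 3 separated the genotypes without overlap. Mmrn2, a glycoprotein of the endothelial matrix, had 8.50, 8.91 and 8.67 in the mutants and 8.02, 8.0 and 8.17 in their littermates (1.55-fold, 0.63 ± 0.12, adjusted p = 0.0352). Cdh5, the VE-cadherin of endothelial adherens junctions, measured 6.77, 6.93 and 6.96 in RFC1-/- embryos, against 6.40, 6.37 and 6.50 in RFC1+/+ embryos (1.38-fold, 0.47 ± 0.10, adjusted p = 0.0481). Cdh5 was the member closest to the threshold among those past it, and it lost its call whichever of the 3 litters was left out (adjusted p = 0.195, 0.181 and 0.0598). Without litter 1 Esam and Mmrn2 did not pass (adjusted p = 0.0691 and 0.0992), and without litter 2 Esam, Mmrn2 and Adgrl4 did not (0.0673, 0.114 and 0.0868).

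The other 8 genes of this group were not past the threshold. Plvap, the protein of the diaphragms of fenestrae and caveolae, had 9.06, 9.58 and 9.19 in RFC1-/- embryos and 8.65, 8.55 and 8.79 in RFC1+/+ embryos, and Cldn5, a claudin of endothelial tight junctions, had 8.88, 9.46 and 8.77 in the mutants, against 8.33, 8.64 and 8.66 in their littermates. Both separated the genotypes, with differences of 0.61 ± 0.15 and 0.49 ± 0.15 (adjusted p = 0.0664 and 0.119), and both passed without litter 3 (adjusted p = 0.0405 and 0.0181). Egfl7, a factor secreted by endothelial cells, differed by 0.29 ± 0.12, again without overlap (adjusted p = 0.254). Robo4, Eng (the co-receptor endoglin) and the sialomucin Emcn differed by 0.27, 0.24 and 0.16, with overlapping genotypes and adjusted p of 0.359, 0.3 and 0.683. Pecam1, the platelet and endothelial adhesion molecule by which vessels are often stained, measured 4.78, 4.71 and 4.88 in the mutants and 4.66, 4.82 and 4.67 in their littermates. Its only probe set lay under 5.46, the median of the whole table, on all 6 arrays, and it differed by 0.07 ± 0.11 (95% confidence interval -0.19 to 0.33). Cd34, a sialomucin shared by endothelium and blood progenitors, had the lowest signed difference of the group, -0.13 ± 0.14, with 8.43, 8.67 and 8.30 in RFC1-/- embryos and 8.77, 8.45 and 8.58 in RFC1+/+ embryos (adjusted p = 0.715).

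Of 5 transcription factors, 3 were higher and the remaining 2 differed by less than 0.1. Sox7 and Sox18 belong to the SOXF family, which acts in endothelial differentiation and arterial identity. Sox7 had the largest difference of all members, with 7.93, 7.83 and 8.06 in RFC1-/- embryos, against 6.60, 6.58 and 6.92 in RFC1+/+ embryos. This was a 2.36-fold rise (1.24 ± 0.10, 95% confidence interval 1.00 to 1.48, adjusted p = 0.00414). Sox18 measured 8.58, 8.73 and 8.47 in the mutants and 7.96, 7.86 and 7.68 in their littermates (1.69-fold, 0.76 ± 0.10, adjusted p = 0.0123). Erg, an ETS factor that maintains endothelial identity, stood at 7.99, 7.83 and 8.0 in RFC1-/- embryos and at 7.18, 6.88 and 7.02 in RFC1+/+ embryos (1.89-fold, 0.92 ± 0.10, adjusted p = 0.00737). These 3 factors kept their calls when any 1 litter was left out. Fli1 and Ets1 are ETS factors of endothelium too, but are also made in blood precursors and in mesenchyme. Fli1 had 6.95, 7.36 and 7.27 in the mutants, against 7.02, 7.30 and 7.37 in their littermates (-0.04 ± 0.10, 95% confidence interval -0.27 to 0.20), and Ets1 differed by 0.07 ± 0.12 (-0.21 to 0.35). The promoter of Erg, at 1 of the 3 start sites listed for it, is shown for a match to the ETS letters CAGGAAG, read on the opposite strand as the capitals mark and present in 10.8% of all promoters searched (minus strand, chr16:95459349-95459598).
Erg: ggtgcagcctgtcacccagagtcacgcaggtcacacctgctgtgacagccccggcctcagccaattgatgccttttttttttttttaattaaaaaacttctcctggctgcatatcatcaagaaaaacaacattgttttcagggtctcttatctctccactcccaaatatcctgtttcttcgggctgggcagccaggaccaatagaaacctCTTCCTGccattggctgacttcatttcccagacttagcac

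The genes of Notch signalling and of arterial and venous identity had the lowest median difference of the groups, 0.15, and 1 of 9 was higher. Hey2, a Notch target and transcriptional repressor of arteries and heart, was the gene that passed, with 7.32, 7.22 and 7.18 in RFC1-/- embryos, against 6.73, 6.63 and 6.86 in RFC1+/+ embryos (1.42-fold higher, 0.50 ± 0.11, adjusted p = 0.0469). Its call was lost without litter 1 (adjusted p = 0.287) or litter 2 (0.165). The related Hey1 and Heyl differed by 0.15 ± 0.10 and -0.34 ± 0.10 and did not pass (adjusted p = 0.559 and 0.111). Heyl measured 5.06, 4.79 and 4.53 in the mutants and 5.37, 5.08 and 4.94 in their littermates, and was the 1 member that was lower than the littermate in all 3 litters, which 20.6% of all genes were. The receptor Notch1 and the ligands Dll4 and Jag1 differed by -0.16 ± 0.12, 0.20 ± 0.10 and -0.02 ± 0.14 (adjusted p = 0.574, 0.377 and 0.969). Notch4, the receptor most restricted to endothelium, differed by 0.44 ± 0.19, with 6.54, 7.01 and 6.62 in RFC1-/- embryos and 6.22, 5.99 and 6.64 in RFC1+/+ embryos (adjusted p = 0.288). The wide spread between its littermates left its interval at -0.01 to 0.89. The arterial ephrin Efnb2 and its venous receptor Ephb4 differed by 0.20 and 0.08 (adjusted p = 0.348 and 0.817), so neither side of the arteriovenous pair passed the test. The promoter of Hey2 is shown for the second match to the RBPJ letters among the members past the threshold, here on the opposite strand (minus strand, chr10:30842784-30843033, match in capitals).
Hey2: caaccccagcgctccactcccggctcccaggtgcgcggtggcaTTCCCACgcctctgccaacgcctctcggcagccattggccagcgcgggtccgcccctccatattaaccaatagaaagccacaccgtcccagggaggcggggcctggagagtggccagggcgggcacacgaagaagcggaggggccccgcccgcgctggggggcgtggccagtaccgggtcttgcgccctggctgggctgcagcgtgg

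Among the receptors for vasoactive peptides, the nitric oxide synthase and the BMP receptor, 1 of 5 passed. Ramp2, the accessory protein that turns the receptor Calcrl into an adrenomedullin receptor, had 9.46, 9.54 and 9.33 in RFC1-/- embryos and 8.62, 8.64 and 8.64 in RFC1+/+ embryos, whose SD was 0.01. It was 1.75-fold higher in the mutants (0.81 ± 0.10, adjusted p = 0.0106), and its adjusted p was 0.053 without litter 1. Calcrl itself measured 9.28, 9.10 and 9.33 in the mutants, against 8.55, 8.81 and 8.80 in their littermates, a separation of the genotypes that missed the threshold (0.52 ± 0.12, adjusted p = 0.0587). Nos3, the endothelial nitric oxide synthase, had 6.97, 7.30 and 6.85 in RFC1-/- embryos and 6.18, 6.29 and 6.77 in RFC1+/+ embryos (0.63 ± 0.18, adjusted p = 0.111). The genotypes of Nos3 did not overlap, but its littermates of litter 3 differed by 0.08, and it passed without that litter (adjusted p = 0.0058). The apelin receptor Aplnr and Acvrl1, the receptor for BMP9 and BMP10 in endothelium, differed by 0.14 ± 0.13 and 0.03 ± 0.10 (adjusted p = 0.694 and 0.928). Acvrl1 stood at 5.12, 5.09 and 5.04 in the mutants and 5.01, 5.10 and 5.03 in their littermates, under the median of the whole table.

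The array carries several probe sets for 26 of the members and 1 for 19. When each probe set was tested on its own, 20 of the 90 (22.2%) were higher and 0 lower, whereas 1.87% of all probe sets were called higher and 0.882% lower (limma, adjusted over 45101 probe sets). Without litter 1 the test called 1 member probe set and without litter 2 it called 7, all higher, and without litter 3 it called 24 higher and 1, of Heyl, lower. The shares of all probe sets given above are for the fit with all litters, and none is given for these 3 fits. Of the 45 probe sets that were not the brightest of their gene, 7 were higher. They came from Adgrl4 (0.96, adjusted p = 0.00877), Flt1 (0.83, adjusted p = 0.0132), Mmrn2 (0.70 and 0.62) and Nrp1 (0.62, 0.57 and 0.51, adjusted p = 0.0263, 0.0394 and 0.045). Nrp1 was therefore higher on 3 of its dimmer probe sets, while its brightest differed by 0.38 (adjusted p = 0.228). The probe sets of Flt1 and Mmrn2 disagreed too, since 2 more of Flt1 differed by 0.17 and 0.34 and 1 more of Mmrn2 by 0.16, none of them past the threshold. Flt4, Nrp2, Vegfc, Cdh5 and Hey2, past it among genes, were not past it in this larger family of tests (adjusted p between 0.0541 and 0.0626). Dim probe sets showed little: of the 22 with a mean under 5.46, 1 was higher and the median difference was 0.04, whereas in the 3 brighter classes, with bounds at 7 and 9, the medians were 0.41, 0.44 and 0.34. Second probe sets of Angpt1, Angpt2, Erg, Cdh5 and Sox7 differed by 0.09, 0.00, 0.08, 0.04 and 0.21, and all of these lay under 5.46 on every array. The brightest ones of these genes differed by 0.59, 0.59, 0.92, 0.47 and 1.24. The second probe set of Podxl, which was not dim, differed by 0.50 with overlapping genotypes (adjusted p = 0.0684), against 0.92 on the brightest. The second probe set of Flt4 went the other way, at 5.78, 5.86 and 5.86 in RFC1-/- embryos and 5.99, 5.88 and 5.90 in RFC1+/+ embryos, without overlap (-0.09 ± 0.10, adjusted p = 0.779). When the probe sets of each gene were averaged, Flt4, Nrp2, Angpt1, Angpt2, Cdh5 and Erg did not pass (adjusted p between 0.0575 and 0.32), and Nrp1 did (0.0251).

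**Figure D3:**
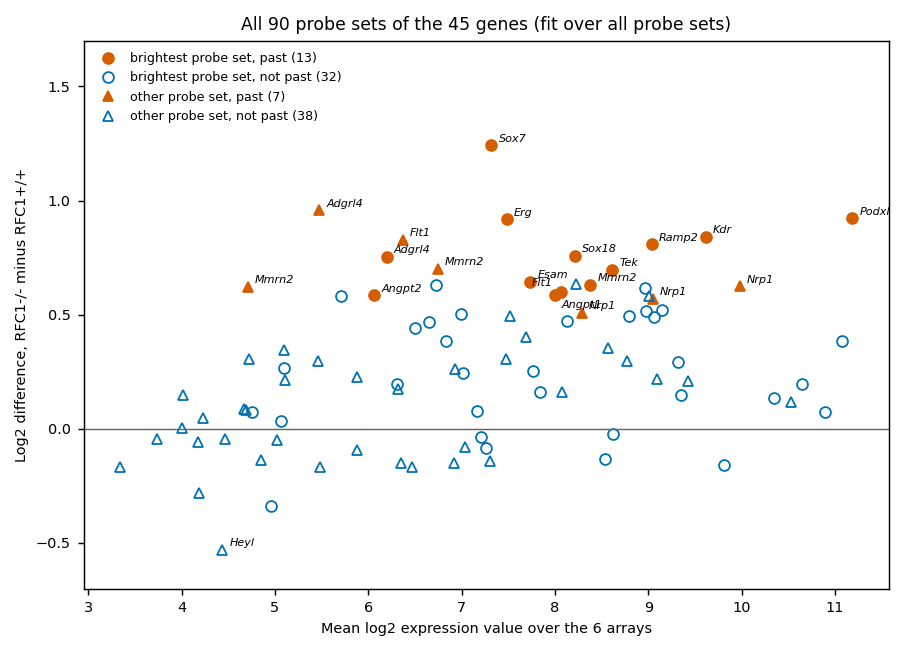
Log2 difference between RFC1-/- and RFC1+/+ embryos (vertical) against the mean log2 expression value over the 6 arrays (horizontal) for the 90 probe sets of the 45 genes, with circles for the brightest probe set of a gene, triangles for the others and filled symbols where the adjusted p over all probe sets was under 0.05. The 20 filled symbols lie above 0, and most probe sets with a mean under 5.46 lie near it.

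Promoter letters were set beside the calls. RefSeq entries of GRCm38.p6 were at hand for 27 of the 45 members, 9 of them past the threshold, and the 250 bases before the start site were searched on both strands for sequences bound by ETS, SOX, RBPJ and general factors. No motif contained another. A gene was counted if any of its entries held the letters, and the shares given here for comparison are of the 27025 genes with an entry, counted in the same way. CAGGAAG was found for 8 of the 27 members, 1 of 9 past the threshold and 7 of 18 not past it, against 12.1% of all genes, and the other ETS form CCGGAAG for 0, against 7.83%. The RBPJ letters GTGGGAA were found for 3 members, Kdr, Hey2 and Tie1, 2 of 9 past the threshold and 1 of 18 not past it, against 6.18% of all genes. The SOX cores ACAAAG and ACAATG were each found for 4 members, 1 of 9 past the threshold and 3 of 18 not past it, against 18.6% and 12.2% of all genes. The GC box GGGCGG stood in 18 of the 27, 7 of 9 and 11 of 18, against 35.4% of all genes. TATAAA stood in 3, 2 of 9 and 1 of 18, against 14.3%. Matches to ETS and SOX letters were thus not more frequent among the members that passed than among those that did not, in numbers this small. Those to RBPJ, GC box and TATA letters were more frequent among the members that passed, in numbers as small. A match is a run of letters and not a shown binding site.

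Of 40 endothelial genes that are not members, 11 were higher, 0 lower and 29 not past the threshold, with a median difference of 0.35. Without litter 1, 6 were higher and 0 lower, and without litter 2, 6 were higher and 1 lower. The lower one was Nr2f2, a factor of venous identity and of mesenchyme, which differed by -0.57 with all litters and was also past the threshold as lower with an intensity trend and with embryo sex as a covariate. Sox17, the remaining SOXF factor, measured 9.81, 9.73 and 10.04 in RFC1-/- embryos, against 8.38, 8.39 and 8.78 in RFC1+/+ embryos (2.54-fold higher, 1.35, adjusted p = 0.00342), so that all 3 SOXF factors were higher. The next largest were Hhex (2.31-fold, adjusted p = 0.0125), a homeobox gene of early endothelium and endoderm, and Etv2 (2.07-fold, adjusted p = 0.0262), the ETS factor that starts endothelial and blood differentiation and whose adjusted p was 0.0575 without litter 1. Sox17, Hhex and the member Sox7 are genes of endoderm as well as of endothelium. Tal1, Lmo2 and Gata2, factors shared by endothelial and blood precursors, were not past the threshold (0.30, 0.41 and 0.40, adjusted p = 0.223, 0.284 and 0.103).

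Of 21 other ligands and partners of the same pathways, 4 were higher and 1 was lower, with a median of 0.13, and without litter 1 or litter 2 the calls left were Adm and Vegfa. Adm, the peptide adrenomedullin that acts through Calcrl and Ramp2, had 9.28, 9.06 and 8.94 in RFC1-/- embryos and 7.80, 7.77 and 7.43 in RFC1+/+ embryos (2.69-fold higher, 1.43, adjusted p = 0.00342). Vegfa, the main ligand of Kdr and Flt1, stood at 8.27, 7.89 and 8.26 in the mutants, against 6.92, 7.17 and 7.20 in their littermates (2.06-fold higher, 1.04, adjusted p = 0.0117). Adm and the accessory protein Ramp2 were thus both higher, as were Vegfa and its receptors Kdr and Flt1, while Calcrl was not past the threshold. Efna1, an ephrin ligand, rose as well (0.94, adjusted p = 0.0402), whereas Ackr3, a scavenging receptor for Cxcl12 that also takes up adrenomedullin, was 1.46-fold lower, with 8.76, 9.07 and 8.87 in RFC1-/- embryos and 9.55, 9.56 and 9.24 in RFC1+/+ embryos (adjusted p = 0.0481). Of 12 genes of mural cells, which wrap vessels, 4 were higher and 0 lower. Rgs5, a pericyte gene, and Tagln and Cnn1, genes of smooth muscle that the early heart also makes, were highest among them (1.28, 0.99 and 0.81, adjusted p = 0.00492, 0.00696 and 0.039), and 2 of the list, Rgs5 and Tagln, passed without litter 1.

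Marker lists of other tissues differed between these embryos along with the vessel genes. Of 21 measured visceral endoderm genes, 20 were higher in RFC1-/- embryos and their mean level per embryo was 8.93 to 10.50, against 6.36 to 7.37 in RFC1+/+ embryos. Cardiomyocyte genes were higher in 12 of 15 (1 without litter 1 and 4 without litter 2), with mean levels of 10.35 to 10.51 in the mutants and 9.68 to 9.88 in their littermates. Parietal endoderm genes were higher in 4 of 10 (2 without litter 1 and 0 without litter 2), at 8.65 to 8.69 in RFC1-/- embryos and 8.22 to 8.33 in RFC1+/+ embryos. The 4 were Sparc, Lamb1, Col4a1 and Col4a2, matrix and basement membrane genes that are not confined to parietal endoderm. The other 6 were not past the threshold, and 2 of the 10 had a mean difference below 0. Trophoblast genes were higher in 1 of 10, of which 6 lay under the median of the whole table. Neural progenitor genes were lower in 17 of 18 (6.70 to 7.59, against 8.33 to 8.54 in RFC1+/+ embryos). The vessel genes themselves had mean levels of 8.10, 8.20 and 8.12 in RFC1-/- embryos and 7.71, 7.72 and 7.81 in RFC1+/+ embryos. What part the makeup or the developmental stage of the embryos had in the values of the vessel genes was not tested. Blood arises beside endothelium, and its primitive erythroid genes went the other way: 10 of 16 were lower and 0 higher (5.39 to 5.89, against 7.39 to 7.94 in RFC1+/+ embryos). Genes of blood progenitors, macrophages and megakaryocytes were mixed. Of these 16, 3 were lower (Pf4, Clec1b and Myb) and 2 higher (Kit and Mrc1), with a median difference of -0.05. Kit lost its call without litter 1 (adjusted p = 0.0614), and Pf4 and Mrc1 lost theirs without litter 2 (0.0514 and 0.0855). Slc19a1 itself read 1.91-fold higher in the RFC1-/- embryos on its brightest probe set, and no source used here says which part of the gene was removed, so this does not check the labels.

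**Figure D4:**
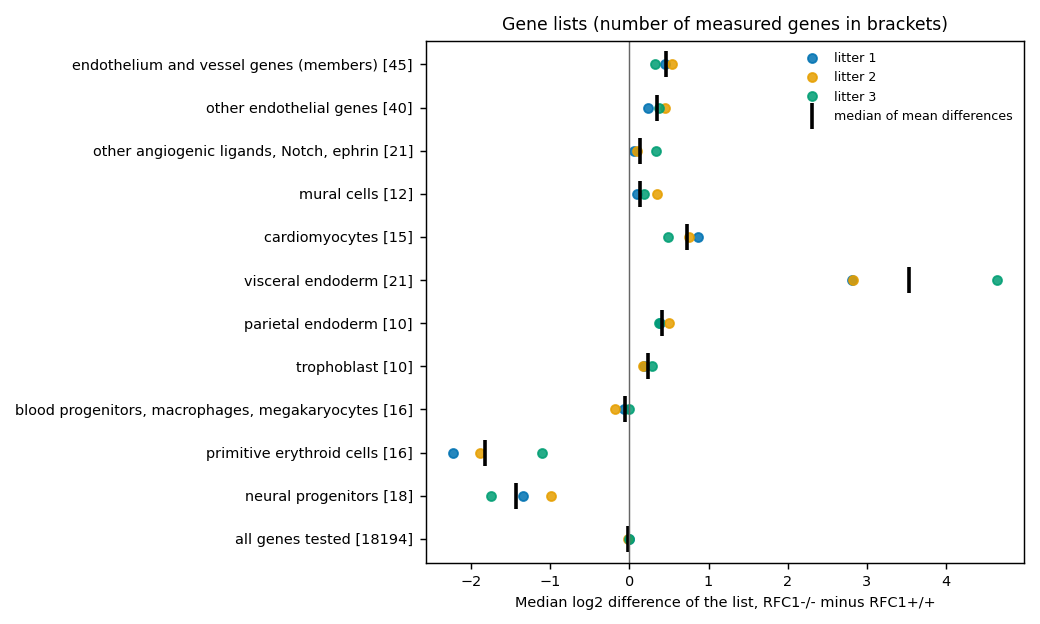
Median log2 difference between RFC1-/- and RFC1+/+ embryos for the 45 vessel genes, for 10 lists of other genes and for all genes tested, with 1 circle for each litter and a black bar for the median of the mean differences. The vessel genes lie at 0.47 and the other endothelial genes at 0.35, between visceral endoderm at 3.53 and primitive erythroid cells at -1.82, while all genes lie at -0.01.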

How the data were processed

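The authors deposited log2 expression values, 1 per probe set and array, which their methods describe as made with RMA (background correction, quantile normalization and median polish). No source used here gives its version. The table still held all 45101 probe sets, without the 1.5-fold variation filter that the methods apply. Medians of the arrays were 5.43 to 5.49 and correlations between arrays 0.984 to 0.996. Arrays give no read depth, and the 6 arrays limit the precision. Gene names came from the platform annotation (34958 with 1 symbol, 932 with several, 9211 with none), and each gene was read on the probe set with the highest mean. RFC1-/- embryos were compared with RFC1+/+ embryos in limma (lmFit and eBayes), as a log2 difference of mutant minus wild type, with the litter as a block, adjusted by the Benjamini-Hochberg method over 18194 genes, or over all probe sets where these are counted. The fit was tested on simulated data. The labels and methods make the litters real pairs, and deviations of littermates from their genotype means correlated at 0.01, -0.03 and -0.20 in litters 1, 2 and 3. Replicates are separate embryos.

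The members and lists were chosen with earlier results of these data known. Values in every embryo are given for members past an adjusted p of 0.05, for Pecam1, Cdh5, Tek, Tie1, Flt1, Kdr, Angpt1 and Angpt2, and for the highest and lowest signed difference in each role, and of each other list up to 3 genes past the threshold are named per direction. Nrp1, Plvap, Cldn5, Calcrl, Nos3 and Notch4 are given beyond that rule, chosen after their values were seen. List genes with no probe set of a single matching symbol (14 of them) were not analysed here. As alternatives, the variation filter was applied, dim probe sets were dropped, the litter block was removed, and the fit was repeated with an intensity trend, the random-variance paired test of the methods, other scalings, other choices of probe set, embryo sex as a covariate, and each litter left out. Tests ran in R 4.3.3 (limma 3.58.1), and tables and plots were made in Python 3.11.15 with matplotlib 3.10.9, numpy 2.4.6, pandas 2.3.3 and scipy 1.17.1.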

Additional observations from a re-analysis of the deposited data

How the results depend on the processing

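Members past the threshold were higher under each of the 13 alternatives, and 0 were lower. Their number was 18 with the litter block and 21 without it, and the replicate block changed no call among those 18. It was 15 with dim probe sets left out, with an intensity trend and with the random-variance paired test, 12 with arrays centred on the median and 13 with the mean of probe sets. Sox7 kept its call in all 13 and Sox18 in the 12 that tested it, whereas Cdh5 kept its call in 3 of 12 and Flt4 in 4 of 12. Of the 18, Kdr, Podxl, Erg, Adgrl4, Tek and Vegfc were tested after the variation filter and lost their calls. The variation filter tested 14 members, called 1, Sox7, and left their median difference at 0.63. It called 3 other endothelial genes, 2 other ligands and partners, 1 member probe set and 416 genes in all. Each genotype held 2 male embryos and 1 female by Xist and Y-linked genes, but littermates were of the same sex in litter 1 only. In litter 2 the RFC1-/- embryo was male and the RFC1+/+ embryo female, and in litter 3 the reverse. Sex as a covariate called 24 members, 18 other endothelial genes (17 higher and 1 lower), 33 member probe sets and 1796 genes. The other ligands and partners gave 3 calls with dim probe sets left out, 3 with the random-variance test and 2 with arrays centred on the median. The mean of probe sets gave a median member difference of 0.28. Leaving out each litter in turn gave 6 to 20 members, 6 to 13 other endothelial genes, 2 to 5 other ligands, 355 to 1199 genes, 1 to 25 member probe sets (24 higher and 1 lower without litter 3) and a median of 0.41 to 0.51, with 6 members without litter 1, 7 without litter 2 and 20 without litter 3, of which 16 were among the 18. Signs turned for members near 0: over the litters left out in turn Vegfb ran between -0.216 and 0.0788, Emcn between -0.0453 and 0.316, Ets1 between -0.0516 and 0.151, Jag1 between -0.216 and 0.112, Acvrl1 between -0.00533 and 0.0553 and Aplnr between -0.0188 and 0.269, and Ets1 was -0.0272 with the mean of probe sets and -0.151 with the probe set of largest change. The cause of these changes was not tested. For the counts of member probe sets under these alternatives, no count over all probe sets is given beside them.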
